A study of Mus musculus with 20 samples.

Results

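Expression of 6 genes, Hcar2, Prok2, Anpep, Tm4sf19, Stfa1 and Apol11b, was examined on 20 whole-transcript arrays of mouse bone marrow cells. Each gene was read from the probe set whose platform symbol is exactly its name, and each had 1 such probe set. They are 6 of the 22180 genes with a single-symbol probe set, and all 6 passed the filter on dim genes that left 16638 genes tested. The 6 were chosen by their genotype differences on these same arrays, as genes higher in CreER-Raptor than in WT cells cultured with M-CSF. Their genotype differences are therefore given as descriptions, with no test and no p-value. No cut-off value belongs to that choice.

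The arrays fall into 6 groups. CreER-Raptor lineage-negative (Lin-) cells kept for 12 h in vitro with 10 ng/ml M-CSF gave 4 arrays, and WT Lin- cells under the same stimulation gave 4. Freshly sorted CreER-Raptor common myeloid progenitors (CMPs) gave 3 arrays and WT CMPs 3, while CreER-Raptor granulocyte-macrophage progenitors (GMPs) gave 3 and WT GMPs 3. All mice were female on a C57BL/6 background, and the CreER-Raptor animals carried the Cre-oestrogen receptor fusion with both Rptor alleles floxed (CreER-Rptor-flox/flox). The labels do not give the promoter of the Cre transgene, whether and when it was induced, or whether WT mice carried it. Nor do they state that replicate arrays stem from different animals. Every p-value thus reflects no more than the scatter among these arrays, part or all of which may be technical.

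Raptor, the product of Rptor, is the scaffold that brings substrates to the kinase mTOR in complex 1, which couples growth factor and nutrient signals to protein synthesis and metabolism. M-CSF acts through the receptor Csf1r and drives progenitors towards monocytes and macrophages. The 6 genes belong to different families. Hcar2 encodes a surface receptor for niacin and the ketone body beta-hydroxybutyrate, and Prok2 encodes prokineticin 2 (Bv8), a secreted peptide that neutrophils store and release. Anpep encodes aminopeptidase N (CD13), a surface peptidase of myeloid cells, and Tm4sf19 a membrane protein of the L6 tetraspan family. Stfa1 encodes stefin A1, a cytosolic inhibitor of cysteine cathepsins, and Apol11b belongs to the apolipoprotein L family.

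The 250 bases upstream of the annotated start were available for 5 of the 6 genes in a RefSeq table of promoters (build GRCm38.p6), Hcar2 being the exception. The 3 windows that held a match to any of 7 short motifs are printed here, 5′ to 3′ on the gene's strand, so that the upstream sequence can be read beside the levels that follow. Capitals mark the matches. The Prok2 window is chr6:99726393-99726642 on the minus strand, the Stfa1 window chr16:36276898-36277147 on the plus strand and the Apol11b window chr15:77643287-77643536 on the minus strand.
Prok2: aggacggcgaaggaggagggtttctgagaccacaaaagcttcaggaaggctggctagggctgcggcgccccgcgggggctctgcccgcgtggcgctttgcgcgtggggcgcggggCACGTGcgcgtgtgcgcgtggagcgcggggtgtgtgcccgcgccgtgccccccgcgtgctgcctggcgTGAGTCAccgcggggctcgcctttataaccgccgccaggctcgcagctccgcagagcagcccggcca
Stfa1: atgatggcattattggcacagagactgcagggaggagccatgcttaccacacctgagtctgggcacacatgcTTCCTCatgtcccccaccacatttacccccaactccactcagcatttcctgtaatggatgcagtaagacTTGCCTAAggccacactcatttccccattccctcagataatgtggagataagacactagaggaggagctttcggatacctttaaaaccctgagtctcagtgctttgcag
Apol11b: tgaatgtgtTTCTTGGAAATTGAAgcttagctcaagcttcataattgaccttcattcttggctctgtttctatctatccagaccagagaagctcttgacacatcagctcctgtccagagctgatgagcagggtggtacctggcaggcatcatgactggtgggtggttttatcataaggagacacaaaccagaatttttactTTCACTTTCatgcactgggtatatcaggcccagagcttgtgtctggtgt

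Both strands were searched for the motif of C/EBP factors (TTGCNNAA), STAT factors (TTCNNNGAA), PU.1 (GAGGAA), AP-1 (TGANTCA), the E-box bound by Myc and MiT/TFE factors (CACGTG), the interferon response element core (GAAANNGAA) and NF-kB (GGGANTTTC). The last but one was added with these windows in view. The Prok2 window held an E-box starting 135 bases and an AP-1 motif starting 67 bases upstream of the annotated start. In the Stfa1 window a PU.1 motif on the opposite strand started 178 bases upstream, and a C/EBP motif started 109 bases upstream. The Apol11b window held a STAT motif starting 241 bases upstream, which overlapped an interferon core match starting at 235, and another interferon core match on the opposite strand starting at 49. No match lay in the Anpep and Tm4sf19 windows. The Tm4sf19 window (chr16:32400256-32400505, plus strand) lay inside the gene's annotated span, which begins at 32400012. It therefore does not describe sequence before the gene's first annotated base. Of 32851 mouse windows of this length, 9.56% held the C/EBP motif, 7.02% the STAT motif, 23.3% the PU.1 motif, 6.75% the AP-1 motif, 6.02% the E-box, 7.13% the interferon core and 0.941% the NF-kB motif. The windows of Prok2 (73.6% G or C) and Anpep (72.8%) were richer in these bases than the median window (52.4%), whereas those of Tm4sf19 (53.6%), Stfa1 (49.6%) and Apol11b (44.8%) lay closer to it. A match describes letters in the window and is not evidence of binding.

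Values are log2 signals as deposited, so a difference of 1 is a doubling of signal. Signals of different probe sets are not on 1 scale, and levels are therefore compared between groups and never between genes. Array medians ranged from 4.76 to 4.91. Arrays of Lin- cells spread more around their group means (residual SD 0.171 to 0.236) than those of CMPs (0.120 to 0.155) and GMPs (0.109 to 0.168). The fit behind each SE and p-value nonetheless uses 1 estimate of the spread for all groups. Both can therefore be too small with M-CSF and too large in CMPs and GMPs. Among the genes behind the progenitor gates, Kit averaged 11.14 in CreER-Raptor CMPs and 10.73 in WT CMPs, and 11.05 in CreER-Raptor GMPs and 10.76 in WT GMPs. Cd34 averaged 9.57 in CreER-Raptor CMPs and 10.65 in WT CMPs, and 8.89 in CreER-Raptor GMPs and 10.26 in WT GMPs. Fcgr3 averaged 10.48 in CreER-Raptor GMPs and 10.55 in WT GMPs, above the 8.83 of CreER-Raptor CMPs and the 9.47 of WT CMPs. Each sample is a bulk population, in which a change in the number of expressing cells and a change in RNA per cell cannot be told apart.

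Hcar2, the metabolite receptor, had signals of 8.46, 9.62, 8.34 and 9.44 in CreER-Raptor Lin- + M-CSF cells, against 5.86, 5.59, 6.74 and 5.92 in WT cells. The groups did not overlap, with CreER-Raptor arrays 2 and 4 above the others and WT array 3 highest in its group. The difference was 2.94 ± 0.25 log2 units (SE of the fit), or 7.67-fold. In CMPs the signals were 5.15, 4.84 and 5.42 for CreER-Raptor and 5.05, 4.96 and 4.81 for WT, and in GMPs 5.23, 4.78 and 5.02 for CreER-Raptor and 4.77, 4.93 and 4.73 for WT. The genotypes overlapped in both progenitor populations, where the differences were 0.20 ± 0.29 in CMPs and 0.20 ± 0.29 in GMPs. WT cells with M-CSF lay above all 4 progenitor groups without overlap, and those 4 groups overlapped each other in the order of their means.

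Prok2, the secreted ligand, followed a like order. Its signals were 6.87, 7.40, 6.47 and 8.21 in CreER-Raptor Lin- + M-CSF cells and 5.35, 5.20, 6.27 and 5.16 in WT cells. The ranges were separate but close, and WT array 3 stood 1.04 above the mean of the other WT arrays. The difference of 1.74 ± 0.26 (3.35-fold) became 2.00 ± 0.24 without that array. The SD of Prok2 was 0.75 in CreER-Raptor and 0.52 in WT Lin- + M-CSF arrays, but 0.095 and 0.099 in GMPs. The SE of the fit, which shares the spread over all groups, does not show this. In CMPs Prok2 read 5.32, 4.88 and 5.14 in CreER-Raptor and 5.06, 5.09 and 4.96 in WT cells, and in GMPs 5.37, 5.22 and 5.19 in CreER-Raptor and 5.07, 5.16 and 5.27 in WT cells. Genotypes overlapped in both, with differences of 0.08 ± 0.30 in CMPs and 0.09 ± 0.30 in GMPs, and WT cells with M-CSF overlapped every progenitor group but WT CMPs, which lay just below them.

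Anpep, the surface aminopeptidase, did not keep to the M-CSF cultures. In CreER-Raptor Lin- + M-CSF cells its signals were 8.47, 8.74, 8.96 and 9.15, against 6.56, 6.27, 6.30 and 6.62 in WT cells, a difference of 2.39 ± 0.15 (5.25-fold). CreER-Raptor CMPs had 7.03, 7.11 and 7.56 and WT CMPs 5.07, 5.25 and 5.27, while CreER-Raptor GMPs had 7.49, 7.78 and 7.25 and WT GMPs 5.38, 5.24 and 5.30. Genotypes were separate in all 3 populations, and even the freshly sorted CreER-Raptor progenitors lay above WT cells after M-CSF. The differences were 2.03 ± 0.17 (4.09-fold) in CMPs and 2.20 ± 0.17 (4.59-fold) in GMPs. The genotype difference in M-CSF cells exceeded that in CMPs by 0.36 and that in GMPs by 0.19.

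Tm4sf19, whose product is reported to act in osteoclast maturation in mice, had signals of 7.19, 6.69, 7.03 and 6.32 in CreER-Raptor Lin- + M-CSF cells and 4.92, 4.57, 5.21 and 4.93 in WT cells. These ranges were far apart, and here CreER-Raptor arrays 1 and 3 were the high ones. The difference was 1.90 ± 0.18 (3.73-fold). In CMPs the gene read 5.30, 5.39 and 5.83 in CreER-Raptor and 4.69, 5.18 and 4.79 in WT cells, and in GMPs 5.19, 5.67 and 5.14 in CreER-Raptor and 4.70, 4.94 and 4.85 in WT cells. Genotypes were also separate in the progenitors, by the smaller differences of 0.62 ± 0.21 in CMPs and 0.50 ± 0.21 in GMPs. The 3 WT populations overlapped, with means of 4.91 with M-CSF, 4.89 in CMPs and 4.83 in GMPs.

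Stfa1, the cathepsin inhibitor, read 10.66, 11.12, 10.71 and 11.16 in CreER-Raptor Lin- + M-CSF cells and 8.86, 8.45, 10.66 and 8.15 in WT cells. WT array 3 equalled the lowest CreER-Raptor array at this precision and stood 2.17 above the mean of the other WT arrays. The difference was 1.88 ± 0.38 (3.69-fold) with it and 2.42 ± 0.27 without it. CreER-Raptor CMPs had 6.55, 6.71 and 7.49 and WT CMPs 5.32, 5.95 and 5.59, while CreER-Raptor GMPs had 6.22, 6.12 and 6.74 and WT GMPs 5.15, 5.49 and 4.22. Genotypes were separate in both progenitor populations, by 1.30 ± 0.44 (2.46-fold) in CMPs and 1.41 ± 0.44 (2.65-fold) in GMPs. Both genotypes were far higher with M-CSF than when freshly sorted, by 4.00 over CMPs and 4.55 over GMPs in CreER-Raptor cells and by 3.41 and 4.08 in WT cells. Culture and population differ together in this comparison and cannot be told apart. Stfa1 lies among near-identical stefin copies in the mouse genome, so its probe set may also read their transcripts and its values are uncertain in that respect.

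Apol11b had signals of 5.06, 6.21, 4.84 and 5.96 in CreER-Raptor Lin- + M-CSF cells and 3.41, 4.13, 3.70 and 3.87 in WT cells, a difference of 1.74 ± 0.25 (3.35-fold). CreER-Raptor CMPs had 5.34, 5.90 and 4.80 and WT CMPs 4.21, 3.92 and 3.96, a difference of 1.32 ± 0.29 (2.49-fold). The groups were separate in both. In GMPs the order was lost, with 3.64, 3.70 and 3.96 in CreER-Raptor and 3.95, 3.74 and 3.76 in WT cells and a difference of -0.05 ± 0.29. CreER-Raptor Lin- + M-CSF cells and CreER-Raptor CMPs overlapped, and so did the 4 lower groups. Over the 10 WT arrays Apol11b averaged 3.86, below every array's median and level with the filter on dim genes. Detection above background was not assessed, so its level in WT cells and in GMPs may be that of background.

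**Figure D1:**
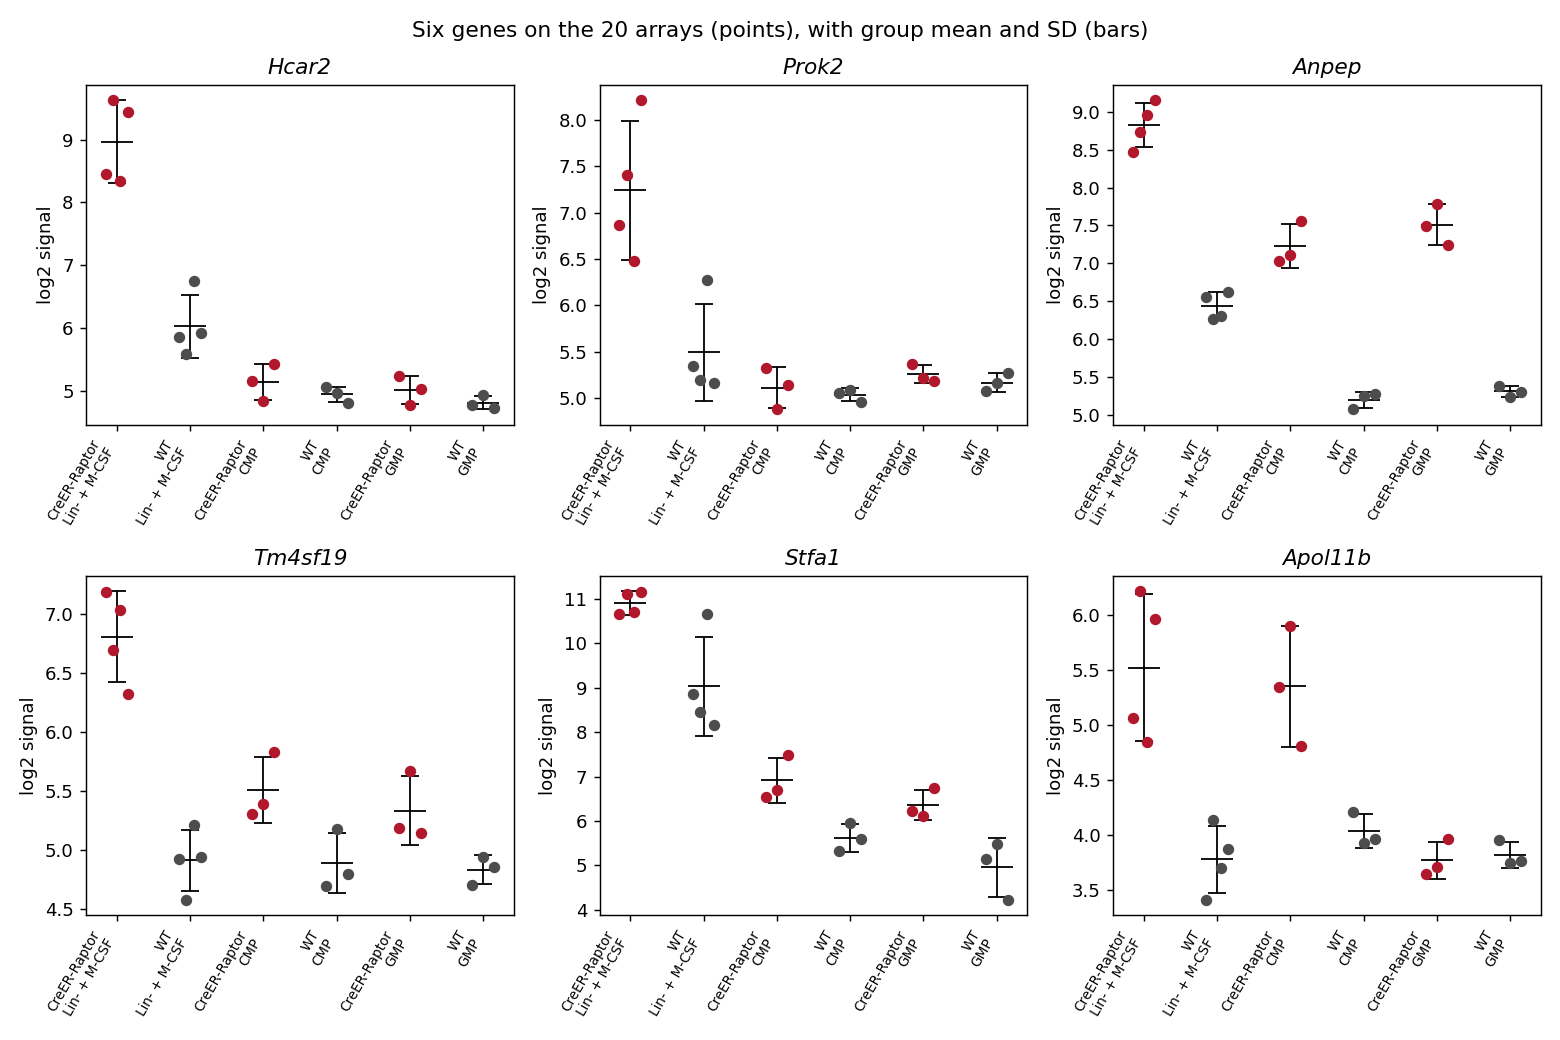
Log2 signal (vertical axis) of the 6 genes on each of the 20 arrays, with CreER-Raptor arrays in red and WT arrays in grey, and the group mean with SD as bars. Hcar2 and Prok2 stand high in CreER-Raptor Lin- + M-CSF cells, Anpep is higher in CreER-Raptor cells of all 3 populations, and Apol11b is high in CreER-Raptor CMPs as well.

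The working description of these genes, raised mainly in Raptor-floxed M-CSF cultures, thus held in different degrees. The genotype difference with M-CSF exceeded that in CMPs by 2.74 and that in GMPs by 2.74 for Hcar2. For Prok2 the excess was 1.66 over CMPs and 1.65 over GMPs, and for Tm4sf19 it was 1.28 over CMPs and 1.40 over GMPs. For Stfa1 it was 0.59 over CMPs and 0.47 over GMPs, and for Apol11b 0.43 over CMPs and 1.79 over GMPs. The values of Anpep and Stfa1 in both progenitor populations, and of Apol11b in CMPs, go against that description. The choice did not directly use the contrast of WT GMPs against WT CMPs. The same WT arrays entered the genotype differences behind the choice, so this contrast is no independent test. In it 0 of the 6 passed an adjusted p of 0.05 in either direction by limma. Of all genes, 6.65% were called higher and 4.35% lower in WT GMPs. An unadjusted p under 0.05 was found for 0 of the 6. The WT GMP minus WT CMP differences ran from -0.67 ± 0.44 for Stfa1 (limma adjusted p = 0.410) to 0.13 ± 0.30 for Prok2 (limma adjusted p = 0.873).

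**Figure D2:**
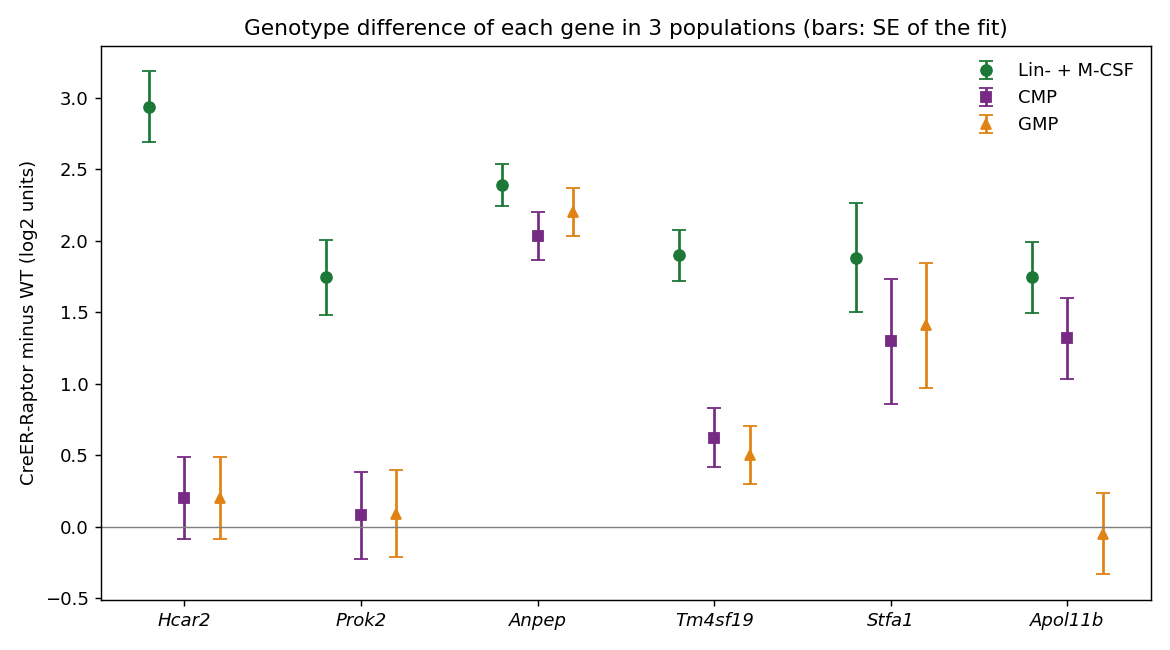
CreER-Raptor minus WT difference in log2 units (vertical axis) of each gene in Lin- + M-CSF cells, CMPs and GMPs, with the SE of the fit as bars. Hcar2 shows 2.94 with M-CSF and 0.20 in CMPs, whereas Anpep shows 2.39, 2.03 and 2.20 in the 3 populations.

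Arrays of 1 group also varied together for some of the genes. After the group means were subtracted, Hcar2 and Prok2 correlated at r = 0.835 over the 20 arrays, and Hcar2 and Stfa1 at r = 0.646, as descriptions over arrays whose hybridization batches the labels do not give. These values were 0.872 and 0.717 over the 8 Lin- + M-CSF arrays, and 0.548 and 0.45 over the 12 progenitor arrays. Some pairs changed sign between these sets, such as Hcar2 with Apol11b (0.637 with M-CSF and -0.642 in progenitors). CreER-Raptor Lin- + M-CSF arrays 2 and 4 were the higher ones for Hcar2, Prok2, Stfa1 and Apol11b, and the lower ones for Tm4sf19. Tm4sf19 and Apol11b deviated in opposite directions (r = -0.691). Anpep had little in common with Hcar2 in this respect (r = 0.12).

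Markers of mature neutrophils moved with part of this spread. The mean of 23 tested neutrophil markers was 8.87, 9.26, 8.78 and 9.21 in CreER-Raptor Lin- + M-CSF cells and 9.13, 9.18, 10.17 and 8.84 in WT cells. WT array 3, which was also the highest of its group for Hcar2, Prok2 and Stfa1, had the highest mean of all 8. Within groups this mean correlated with Stfa1 at r = 0.871, with Hcar2 at r = 0.716 and with Prok2 at r = 0.685, but with Anpep at r = -0.0186 and with Tm4sf19 at r = 0.193. Other marker lists also varied with these genes, in the negative direction. The eosinophil mean correlated with Stfa1 at r = -0.629, and the dendritic cell mean with Prok2 at r = -0.63 and with Hcar2 at r = -0.526. Between genotypes the ranges of the mean of the 23 markers overlapped with M-CSF. With M-CSF, 0 of 23 were called higher and 3 lower in CreER-Raptor cells (6.82% and 5.73% of all genes were), the 3 being Ly6g (-3.33 ± 0.37), the cytokine Il1b (-2.58 ± 0.35) and the collagenase Mmp8 (-0.86 ± 0.24). The mean over the 23 ranged from 7.15 to 7.58 in CreER-Raptor CMPs and 7.93 to 8.14 in WT CMPs, and from 7.79 to 7.94 in CreER-Raptor GMPs and 7.88 to 8.27 in WT GMPs. The lowest signal of any probe set on these arrays was 1.77, so no marker could read 0. Detection of the markers above background was not assessed. The part of neutrophil content in the spread of Hcar2, Prok2 and Stfa1, or in their genotype differences, was not tested.

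**Figure D3:**
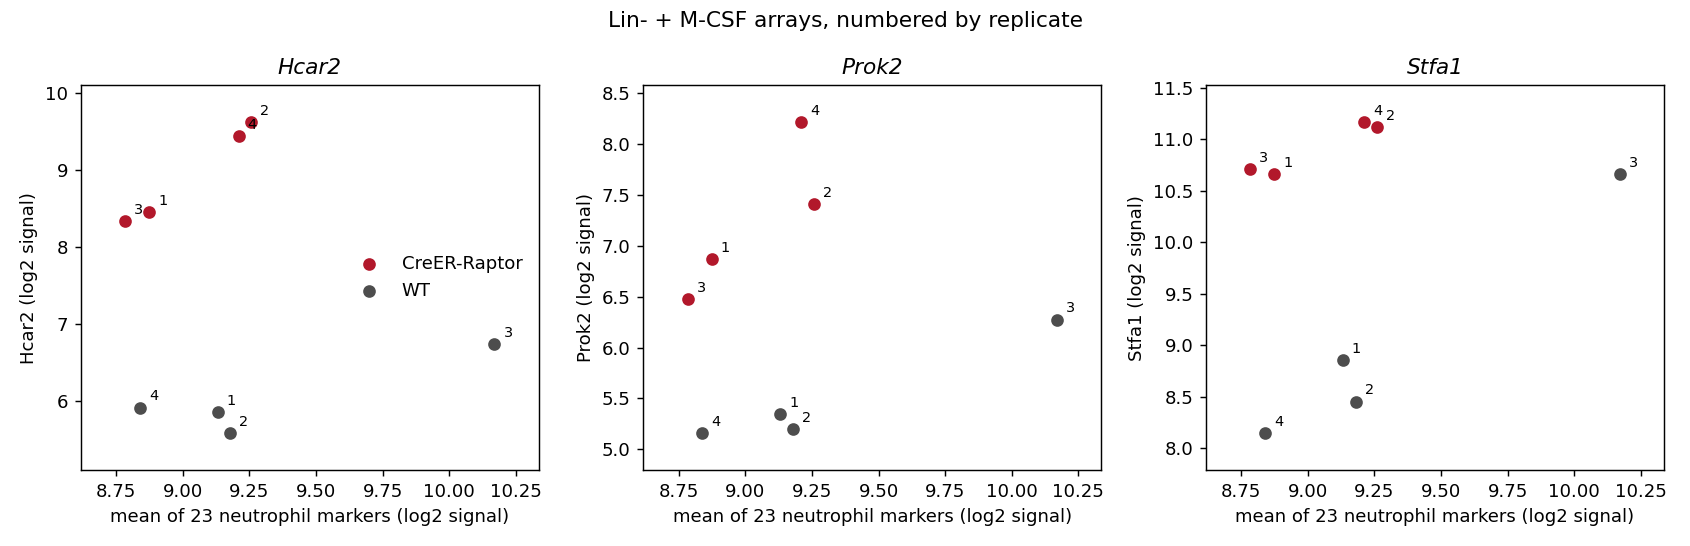
Log2 signal of Hcar2, Prok2 and Stfa1 (vertical axes) against the mean log2 signal of 23 neutrophil markers (horizontal axes) on the 8 Lin- + M-CSF arrays, numbered by replicate. Marker means of CreER-Raptor arrays (red) and WT arrays (grey) overlap, and WT array 3 stands apart at a marker mean of 10.17. The part of neutrophil content in the genotype differences was not tested.

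Monocyte and macrophage markers were mostly lower in CreER-Raptor cells where called. In Lin- + M-CSF cells 0 of 16 were called higher and 11 lower, among them Fn1 (-5.07 ± 0.15), the Fc receptor gene Fcgr1 (-3.62 ± 0.16) and the M-CSF receptor gene Csf1r (-1.39 ± 0.093). Their mean ranged from 7.22 to 7.35 in CreER-Raptor and from 8.36 to 8.61 in WT cells. In CMPs 3 of 16 were called higher and 6 lower, and in GMPs 2 higher and 7 lower. Their mean ranged from 6.91 to 7.20 in CreER-Raptor and 7.31 to 7.34 in WT CMPs, and from 7.02 to 7.12 in CreER-Raptor and 7.66 to 7.73 in WT GMPs. Within groups Tm4sf19 correlated with this mean at r = 0.688, its strongest value over the 10 marker lists. Erythroid markers were called higher in CreER-Raptor cells for 5 of 6 with M-CSF, 5 of 6 in CMPs and 4 of 6 in GMPs. Their mean ranged from 5.64 to 6.6 in CreER-Raptor and 4.79 to 5.32 in WT Lin- + M-CSF cells, from 10.03 to 10.68 in CreER-Raptor and 8.61 to 8.91 in WT CMPs, and from 6.12 to 7.56 in CreER-Raptor and 5.25 to 5.65 in WT GMPs. Within groups Apol11b correlated with the erythroid mean at r = 0.381, and more strongly, in the negative direction, with the B cell mean (r = -0.5), the stroma and endothelium mean (r = -0.472) and the monocyte and macrophage mean (r = -0.465). The part of either cell type in the genotype differences of the 6 genes was not tested. Beside these marker counts, 6.82% of all genes were called higher and 5.73% lower with M-CSF. In CMPs these shares were 6.01% and 5.44%, and in GMPs 4.37% and 7.53%.

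The 3 genes most like each of the 6 across the 20 arrays were found by Pearson correlation over all tested genes, as a description in which the group means dominate. For Hcar2 they were Rasgrp3 (r = 0.978), which encodes an activator of Ras family proteins, Atp6v0d2 (r = 0.963), a subunit of the vacuolar proton pump abundant in osteoclasts, and the nuclear receptor gene Nr4a3 (r = 0.959). For Prok2 they were Hcar2 itself (r = 0.957), Rasgrp3 (r = 0.942) and Bhlhe41 (r = 0.941), a transcriptional repressor. Tm4sf19 was most like Atp6v0d2 (r = 0.905), followed by 2 transcripts without a standard name. Atp6v0d2 lay under the filter on dim genes in every group but CreER-Raptor Lin- + M-CSF cells. Likeness to it thus rests largely on the group where it is high. Rasgrp3 was dim as well, with a mean of 3.87 in WT Lin- + M-CSF cells, level with that filter. Anpep was most like Lrrc2 (r = 0.929), St6galnac2 (r = 0.929), a sialyltransferase gene, and the membrane protein gene Pmp22 (r = 0.91). The genes most like Stfa1 were Vezf1 (r = 0.965), Trim25 (r = 0.961) and Spred1 (r = 0.96), and their own genotype differences with M-CSF were 0.44, 0.15 and 0.24. Apol11b was most like Slc4a1 (r = 0.894), which encodes the red cell anion exchanger, Jmy (r = 0.871) and Slamf1 (r = 0.861).

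Genes related to the 6 by family or function were then compared between genotypes, with the 6 left out. Of 64 such genes tested, 12 were called higher (18.8%) and 8 lower (12.5%) in CreER-Raptor Lin- + M-CSF cells by limma at an adjusted p under 0.05, beside 6.82% and 5.73% of all genes. In CMPs 5 were higher (7.81%) and 8 lower (12.5%), beside 6.01% and 5.44%, and in GMPs 9 were higher (14.1%) and 5 lower (7.81%), beside 4.37% and 7.53%. With array weights the related genes called came to 9 higher in CMPs and to 15 higher and 13 lower in GMPs, where all genes came to 2459 higher and 2869 lower, against 727 and 1253. Fitting only the M-CSF arrays left 477 genes higher and 422 lower of all genes with M-CSF, against 1135 and 953. The median difference over the 64 was 0.10 with M-CSF, 0.05 in CMPs and 0.08 in GMPs. The 3 genotype comparisons use separate arrays but share 1 estimate of the spread. All lists were chosen with earlier results of these data known. The 12 include Atp6v0d2, which passed the filter on dim genes only through the group where it is high. They also include Stfa3, Apol7b, Apol7c and Apol7e, whose probe sets may read related transcripts. These shares are descriptions and lend the 6 genes no support.

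Of 6 stefins and cystatins related to Stfa1, 2 rose with M-CSF, where the list's median was 0.65. In CMPs and GMPs 0 rose, and 1, Cst3, fell in CMPs, a call lost without CreER-Raptor CMP array 2 (adjusted p 0.0719). The stefin gene Stfa3 averaged 9.05 ± 0.36 in CreER-Raptor and 7.21 ± 1.23 in WT cells (SD, n = 4 each), a difference of 1.84 ± 0.37 (limma adjusted p = 0.00203), and its probe set too may read near-identical copies. Cst7, which encodes the lysosomal inhibitor cystatin F, averaged 10.95 ± 0.055 in CreER-Raptor and 10.24 ± 0.19 in WT cells (limma adjusted p = 0.000233). The cysteine proteases, of which cathepsins are the targets of stefins, did not share a direction: 1 of 11 rose and 4 fell with M-CSF. Ctsc, whose product activates neutrophil serine proteases, averaged 9.07 ± 0.13 in CreER-Raptor and 10.46 ± 0.14 in WT cells (limma adjusted p = 5.26e-09). Lgmn, the gene of legumain, fell by 1.04 with M-CSF (limma adjusted p = 6.03e-05) but rose by 1.44 in CMPs (limma adjusted p = 4.21e-06) and by 1.75 in GMPs (limma adjusted p = 2.71e-07). Ctsh fell by 0.91 with M-CSF (limma adjusted p = 0.000289). It fell by 1.15 in CMPs (limma adjusted p = 6.39e-05) and fell by 1.78 in GMPs (limma adjusted p = 2.54e-07). Ctss fell by 0.72 with M-CSF (limma adjusted p = 0.000623).

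Of 5 tested apolipoprotein L genes other than Apol11b, 3 rose in CreER-Raptor Lin- + M-CSF cells and none was called in CMPs or GMPs. Apol7c averaged 6.63 ± 0.37 in CreER-Raptor and 5.22 ± 0.62 in WT cells, a difference of 1.41 ± 0.21 (limma adjusted p = 0.000135). Apol7b rose by 0.61 ± 0.13 (limma adjusted p = 0.00412) and Apol7e by 0.79 ± 0.22 (limma adjusted p = 0.0184). The call of Apol7e was lost without any 1 of 4 arrays, WT array 2 or 4 or CreER-Raptor array 2 or 4 (adjusted p 0.0529 to 0.0628), and Apol7b and Apol7e lost theirs when only the M-CSF arrays were fitted (adjusted p 0.051 and 0.0848). Members of this family are alike in sequence, so their probe sets may read each other's transcripts. Apol7b, Apol7c and Apol7e averaged below every array's median in CMPs and GMPs, so the absence of calls there says little about them.

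The closest relatives of Prok2, Tm4sf19, Hcar2 and Anpep gave few calls. None of 3 prokineticin system genes was called in any of the 3 populations: with M-CSF the receptor genes Prokr1 and Prokr2 differed by -0.19 ± 0.13 and -0.06 ± 0.13, and the related ligand gene Prok1 by 0.12 ± 0.13. None of 3 other L6 tetraspan genes was called in any population. Prok1, Prokr2, Tm4sf4 and Tm4sf20 averaged below every array's median in all 6 groups. Their signals may be background, so the absence of calls says little about them. Of 6 metabolite receptors 0 were higher with M-CSF and 1 was lower, Gpr35, which averaged 4.38 ± 0.47 in CreER-Raptor and 5.52 ± 0.15 in WT cells (limma adjusted p = 3.66e-05). Hcar1, the lactate receptor gene related to Hcar2, differed by 0.14 ± 0.15 with M-CSF (limma adjusted p = 0.594). Of 8 exopeptidases related in activity to Anpep, 0 were called higher in any population, and 1 was called lower with M-CSF, 4 in CMPs and 1 in GMPs. The call with M-CSF, of Rnpep (-0.30, limma adjusted p = 0.0447), was lost with a replicate block (adjusted p 0.0615) and in most other settings. Dpp4, the gene of the surface peptidase CD26, fell by 1.63 in GMPs (limma adjusted p = 1.37e-06), and Lta4h, the leukotriene A4 hydrolase gene, fell by 1.01 in CMPs (limma adjusted p = 1.33e-06).

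Of 12 genes of osteoclasts and macrophage fusion, the setting in which Tm4sf19 has been studied, 4 rose and 2 fell with M-CSF, Atp6v0d2 among the 4. Atp6v0d2 averaged 6.76 ± 0.41 in CreER-Raptor and 3.49 ± 0.19 in WT cells (SD, n = 4 each). It averaged 3.43 in CreER-Raptor and 2.95 in WT CMPs, and 3.10 in CreER-Raptor and 2.93 in WT GMPs. All 5 groups besides CreER-Raptor Lin- + M-CSF cells thus lay under the 3.86 of the filter on dim genes, which Atp6v0d2 passed only through the group where it is high. It had to differ, so its place among the 4 is no support and no p is given. Car2, the carbonic anhydrase II gene, rose by 1.44 ± 0.18 with M-CSF (limma adjusted p = 1.5e-05) and by 1.32 in CMPs and 1.35 in GMPs, and the erythroid lineage also expresses it. Tnfrsf11a, the gene of the RANKL receptor, fell by 0.53 (limma adjusted p = 0.00206), and Mmp9, a matrix protease gene, fell by 1.52 (limma adjusted p = 0.00264), a call that was lost when only the M-CSF arrays were fitted (adjusted p 0.0558). Mmp9 also fell by 1.75 in CMPs (limma adjusted p = 0.00211) and fell by 1.51 in GMPs (limma adjusted p = 0.00782). Of 11 genes of the response to G-CSF and STAT3, which induces Prok2 in myeloid cells in mice, 2 rose with M-CSF, 1 rose and 1 fell in CMPs, and 5 rose in GMPs. Cish, a feedback inhibitor of STAT signalling, rose by 1.02 ± 0.16 with M-CSF (limma adjusted p = 0.000241), and the kinase gene Pim1 by 0.72 ± 0.15 (limma adjusted p = 0.00345). Pim1 also rose by 1.16 in GMPs (limma adjusted p = 0.000106). The median difference of this list was 0.09 with M-CSF, 0.09 in CMPs and 0.36 in GMPs.

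**Figure D4:**
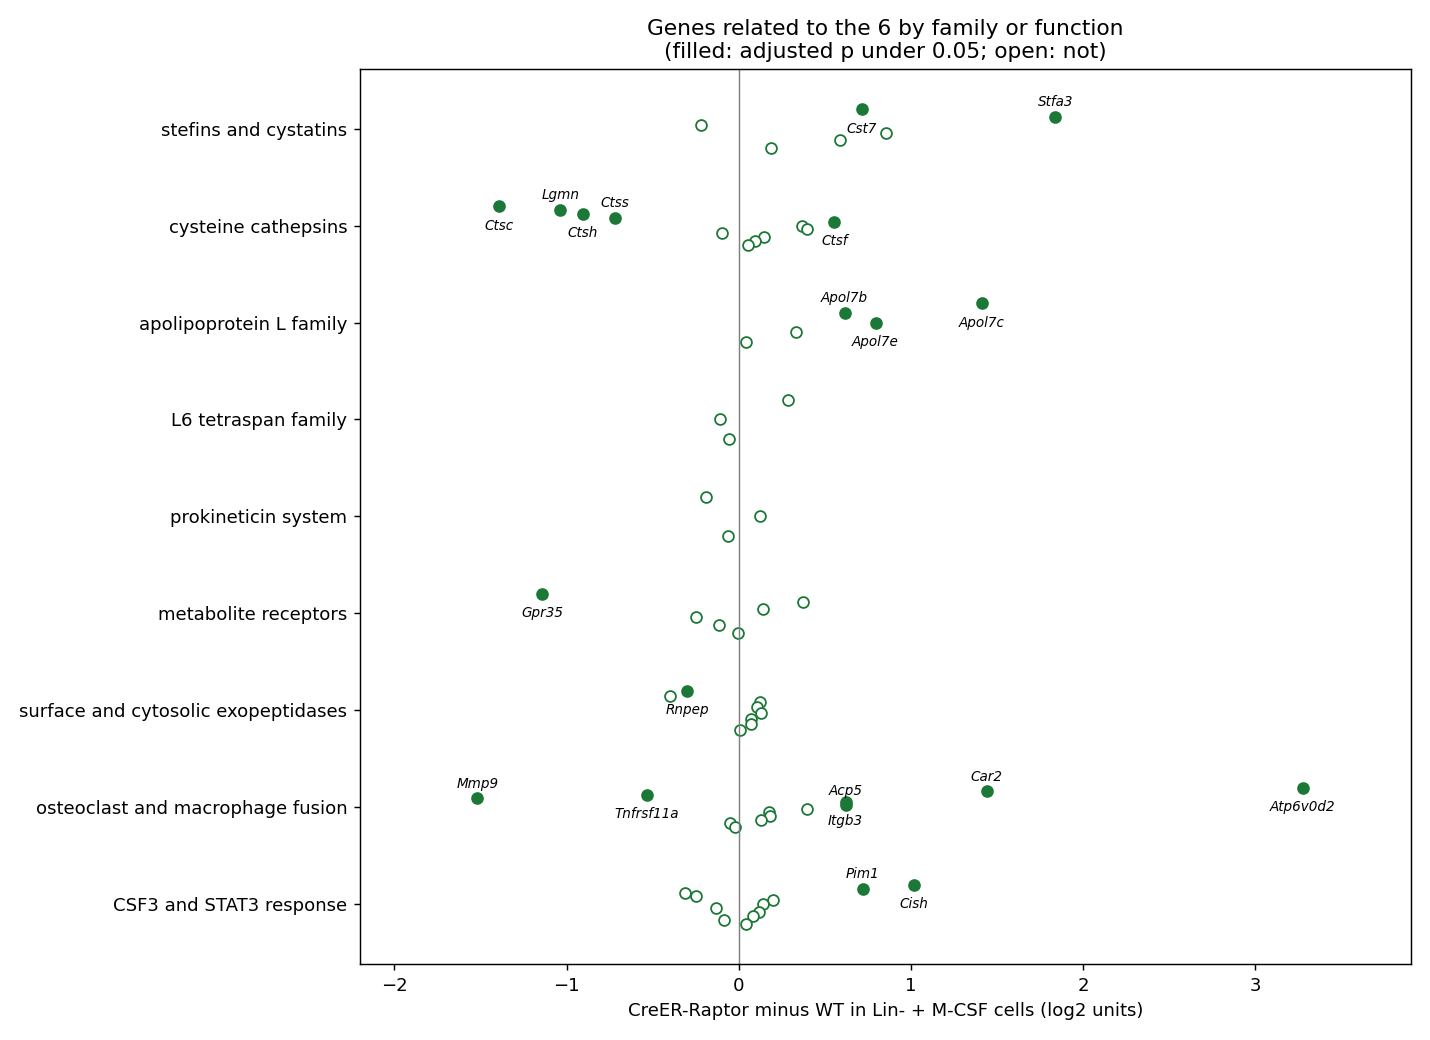
CreER-Raptor minus WT difference with M-CSF in log2 units (horizontal axis) of the 64 related genes by list, with genes at an adjusted p under 0.05 filled and named. Apolipoprotein L genes that passed all lie to the right of 0, cathepsins lie on both sides, and Atp6v0d2, dim in every other group, lies farthest right at 3.27; Ctsf, Itgb3 and Acp5 are named because they passed, beyond the 4 genes per list that the text names.

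The differences between populations were tested for these related genes, though not for the 6. The genotype difference with M-CSF differed from that in CMPs for 15 of 64 genes (8 above and 7 below), beside 7.77% of all genes, and from that in GMPs for 15 of 64 (9 above and 6 below), beside 4.77%. Between GMPs and CMPs it differed for 5 of 64, beside 2.5% of all genes. For Apol7c the difference with M-CSF exceeded that in CMPs by 1.68 (limma adjusted p = 0.002) and that in GMPs by 1.21 (limma adjusted p = 0.0356). Both counts with M-CSF include Atp6v0d2 and Stfa3, whose signals in CMPs and GMPs lay under or near the filter value, and which therefore carry little on a difference there. The genes named here were picked for small p with M-CSF, which favours such calls. The lists themselves were chosen with earlier results of these data known.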

How the data were processed

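RNA of sorted cells, 1 to 5 ng per sample per the labels' protocols, was amplified, biotin-labelled and put on 1-colour arrays. The deposited values are log2 signals per probe set. The authors' processing tools were RMA, Partek 6.6 and limma, per the submitters' processing notes, with no roles given. RMA quantile-normalizes arrays, which hides a change that most transcripts share. Joint normalization of all arrays and the platform's genome build are not given in the sources used here. The number of arrays per group limits the precision.

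The platform annotation paired 23521 of 41345 probe sets with 1 symbol and 1814 with several, and left 16010 unnamed. The probe set of highest mean was kept for each gene, and genes with a mean under the 25th percentile (log2 3.86) were left out. One limma 3.58.1 fit in R 4.3.3 (lmFit, contrasts.fit, eBayes) covered 20 arrays and 6 group means, with 14 residual degrees of freedom and Benjamini-Hochberg adjustment over 16638 genes. Differences are CreER-Raptor minus WT, and WT GMP minus WT CMP. Named beside the 6 genes are the 3 genes most correlated with each and, for each of 9 lists of related genes, up to 4 of smallest p with M-CSF. Of 187 genes in these and 10 marker lists, 151 were tested. The 6 genes and all lists were chosen with earlier results of these data known. The fit was checked on simulated data. Alternatives were other filters, other summaries of probe sets, separate fits, a replicate block, array weights, other normalizations and leaving out each array. Figures were drawn with Python 3.11.15 and matplotlib 3.10.9.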

Additional observations from a re-analysis of the deposited data

Results flagged for a closer look

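Of 80 groups of 4 arrays examined for the 6 genes and the named related genes, 9 had 1 array whose gap to the nearest other passed Dixon's critical value, where chance flags about 1 in 20. In WT Lin- + M-CSF cells array 3 was high for Prok2 (6.27) and Cstdc4 (8.69) and low for Prok1 (4.04), and array 2 was high for Cst3 (11.64). In CreER-Raptor Lin- + M-CSF cells array 4 was high for Apol7b (5.50), and array 2 stood apart for Tm4sf4 (4.77), Ffar2 (6.66), Rnpep (8.54) and Pim1 (8.45).

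Genotype differences of the named related genes differed between populations at a limma adjusted p under 0.05 in 26 of 102 tests. These genes were picked for small p with M-CSF, which favours such calls. Of all genes, 7.77% were called for M-CSF minus CMPs, 4.77% for M-CSF minus GMPs and 2.5% for GMPs minus CMPs. The values here are 1 signed CreER-Raptor minus WT difference minus another, so a positive value can also mean a smaller fall. With M-CSF minus CMPs it was above 0 for Stfa3 (2.08), Cst7 (0.64), Apol7c (1.68), Atp6v0d2 (2.79), Cish (0.92), Ffar2 (0.67) and Lta4h (1.11), of which Lta4h fell in CMPs and was not called with M-CSF, and Ffar2 was called in neither population. It was below 0 for Ctsc (-1.51), Lgmn (-2.47), Ctss (-1.07), Gpr35 (-1.34) and Tnfrsf11a (-0.64). With M-CSF minus GMPs it was above 0 for Stfa3 (2.06), Apol7c (1.21), Apol7b (0.93), Atp6v0d2 (3.11) and Cish (0.91), and also for Ctsh (0.88) and Dpp4 (1.23), whose differences were negative in both and farther from 0 in GMPs. It was below 0 for Ctsc (-0.83), Lgmn (-2.79) and Bcl3 (-0.94), of which Bcl3 rose in GMPs and was not called with M-CSF. With GMPs minus CMPs it was above 0 for Ffar2 (0.83) and for Lta4h (0.74), whose difference was negative in both and farther from 0 in CMPs, and below 0 for Ctsc (-0.68) and Dpp4 (-1.06). Signals of Atp6v0d2, Stfa3 and Apol7c in CMPs and GMPs lay under or near the filter on dim genes. Their calls here therefore carry little, and Atp6v0d2 passed that filter only through the group where it is high.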

How the results depend on the processing

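The 18 genotype differences of the 6 genes were recomputed under up to 29 settings, in all 519 values. Of these, 518 moved by less than the spread between replicates, and Prok2 in GMPs moved to 0.20 with array weights against 0.09. The differences near 0 of Prok2 in CMPs (-0.03 to 0.20) and of Apol11b in GMPs (-0.15 to 0.02) changed sign when 1 array was left out: CreER-Raptor CMP array 1 for Prok2, and array 1 of either genotype's GMPs for Apol11b. WT GMP against WT CMP gave 0 calls among the 6 in every setting, replicate block included. With array weights the genes called higher and lower numbered 712 and 604 with M-CSF, 1503 and 1545 in CMPs, 2459 and 2869 in GMPs, and 2092 and 1903 in WT GMPs, and related genes called higher numbered 9 in CMPs and 15 in GMPs, with 13 lower in GMPs. When only the arrays of the populations compared were fitted, 477 were higher and 422 lower with M-CSF; the cause was not tested. Leaving out 1 array gave 595 to 1079 higher in CMPs, 417 to 818 higher and 766 to 1410 lower in GMPs, and 495 to 1221 higher and 308 to 850 lower in WT GMPs. The lowest counts came without CreER-Raptor CMP array 2 in CMPs, without WT GMP array 2 in GMPs, and without WT GMP array 3 in WT GMPs. Same-numbered arrays of the genotypes shared only a number (correlations of their deviations from -0.344 to 0.119), and with a replicate block the related genes counted 12 higher and 7 lower with M-CSF, 6 and 8 in CMPs, and 9 and 5 in GMPs. Near the threshold, Rnpep with M-CSF, Dpp4 in CMPs and Ffar2 in GMPs were lost in several settings. Array signals near background, such as Apol11b in WT cells, limit what a difference can show.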

Other observations

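Markers of other cell types were counted in the same fit. Beside them, 6.82% of all genes were called higher and 5.73% lower with M-CSF. In CMPs these shares were 6.01% and 5.44%, and in GMPs 4.37% and 7.53%. In CreER-Raptor Lin- + M-CSF cells, 2 of 3 megakaryocyte and 2 of 5 T and NK cell markers were called higher, and 1 of 7 eosinophil markers was higher with 2 lower. In CMPs 1 T and NK cell marker was higher and 1 lower, and in GMPs 1 megakaryocyte marker was higher. Mast cell and basophil markers gave 1 of 7 higher and 2 lower with M-CSF, 1 higher in CMPs and 4 higher in GMPs. Dendritic cell markers were called higher for 0 of 9 with M-CSF, 4 of 9 in CMPs and 3 of 9 in GMPs, and 4 of 7 eosinophil markers were lower in both CMPs and GMPs. Of 6 B cell markers 0 were called with M-CSF and 1 was lower in CMPs and in GMPs. Of 5 markers of stroma and endothelium 0 were called with M-CSF and 1 was lower in each progenitor population. Neutrophil markers were called higher for 1 and lower for 10 of 23 in CMPs, and higher for 4 and lower for 5 in GMPs.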
